A study of Drosophila melanogaster with 48 samples.

Results

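The genes described here are the nuclear genes for the machinery of oxidative phosphorylation, taken by name: protein-coding genes whose FlyBase symbol begins with ND-, Sdh, UQCR-, COX or ATPsyn. The rule found 88 of 17257 genes in the expression files, of which 13802 were protein-coding. It takes 63 subunit genes, which are the core of this description, 24 copies whose symbol ends in L or in L and a number, and 1 assembly factor, Sdhaf3. The 63 subunit genes comprise 34 of complex I (ND-), 4 of complex II (Sdh), 6 of complex III (UQCR-), 8 of complex IV (COX) and 11 of complex V (ATPsyn). The rule uses the symbol alone. The members lie on every major chromosome, with 16 on 2L, 17 on 2R, 20 on 3L, 20 on 3R, 2 on 4 and 13 on X.

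Oxidative phosphorylation is the last stage of respiration in mitochondria. Complex I (NADH dehydrogenase) and complex II (succinate dehydrogenase, also an enzyme of the tricarboxylic acid cycle) pass electrons to ubiquinone, complex III passes them on to cytochrome c, and complex IV (cytochrome c oxidase) passes them to oxygen. Complexes I, III and IV pump protons out of the matrix, and complex V (ATP synthase) uses the return flow to make ATP. Subunits of every complex but II come from both the nuclear and the mitochondrial genome, and only nuclear genes are described here. In Drosophila many of these genes have a second copy in the genome that is known for transcription in the testis. The copies with a symbol ending in L were taken as this kind by their symbol alone. Some, such as COX5BL and COX7CL, lie next to the gene they are paired with.

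RNA was sequenced from Drosophila embryo cells that had been dissociated, fixed, stained and sorted by flow cytometry into marker-positive and marker-negative cells, in order to follow gene expression along the neuroglial lineage. Cells were sorted for Ind, a marker of the intermediate column of the neuroectoderm, for Vnd, which marks its ventral column, for Pros, found in neural stem cells (neuroblasts) and their daughters, for Elav, found in neurons, and for Repo, found in glia. The sorts for Ind, Vnd and Pros were made at 4-6h and 6-8h after egg laying. Those for Elav and Repo were made at 6-8h, at 8-10h and at the late time of 18-22h. This gave 12 comparisons of positive with negative cells and 48 libraries, in 24 groups of 2 biological replicates. All embryos carried a y1 w1118 background. Ind cells came from ind_1.4::dsRed embryos at 4-6h and from ind_1.4::GFP embryos at 6-8h, and Vnd cells from vnd_743::dsRed embryos, where a column enhancer drives the reporter that was stained. The endogenous protein was stained for the other sorts, in vnd-lexA/VC:FNLDD embryos for Pros cells at both times, for Repo cells at 8-10h and 18-22h and for Elav cells at 18-22h, in ind_1.4::GFP embryos for Repo cells at 6-8h, and in yw embryos for Elav cells at 8-10h. At 6-8h, replicate 1 of both Elav fractions came from ind_1.4::GFP embryos and replicate 2 from yw embryos. The negative cells of a sort are all remaining cells of the embryo, so they hold mesoderm, gut, fat body and hemocytes as well as neural cells without the marker.

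The depth lay between 18120862 and 113452420 estimated reads in a library. The gene behind each sort was higher in both positive than in both negative libraries in all 12 comparisons, by 3.68-fold to 343-fold in TPM (a measure of abundance per transcript length, scaled to the same total in every library). The libraries also differed in transcripts that are not markers of any sort. The median over 153 autosomal chemosensory receptor genes, which embryonic cells other than sensory neurons should hardly express, ranged from 0.086 TPM in 4-6h Ind-positive replicate 2 to 18.7 TPM in 8-10h Repo-positive replicate 2. Replicates could differ widely in it, as in 18-22h Elav-negative cells with 0.156 and 14.01 TPM. This receptor level is given beside the results it moves with.

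The subunit genes were among the abundant transcripts in every population. Of the 63, 62 exceeded 10 TPM in all 48 libraries and 38 had a mean above 100 TPM. The exception was ND-B8, an NDUFA2-type accessory subunit of complex I, with a mean of 5.38 TPM and a range from 0 to 22.9 TPM. Its exons lie over those of Gs1l on the opposite strand.

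In complex I the highest mean levels were those of ND-MLRQ with 339.7 TPM, a subunit first assigned to complex I (NDUFA4 in mammals), ND-B12 with 179.6 TPM, of the membrane arm, and ND-B16.6 with 158 TPM (NDUFA13 in mammals). By its symbol, ND-MLRQ is counted in complex I in all sums and shares here. In complex II they were SdhC with 85.8 TPM, a membrane anchor, SdhB with 70.4 TPM, the iron-sulfur subunit, and SdhA with 62.5 TPM, the flavoprotein, and SdhD, the other anchor, had the lowest level with 45.7 TPM. In complex III UQCR-Q led with 323 TPM, UQCR-11, the hinge protein, had 266 TPM, UQCR-6.4 had 216 TPM, and the core protein UQCR-C2 was lowest with 96 TPM. In complex IV COX7B had 775 TPM, COX6B 549 TPM and COX5B 544 TPM, and COX8 was lowest with 174 TPM. In complex V ATPsynC, which encodes the subunit of the membrane ring, was the most abundant transcript of all members with 1140 TPM, followed by ATPsynF with 635 TPM and the catalytic ATPsynbeta with 410 TPM, and the peripheral stalk gene ATPsynB was lowest with 85.6 TPM.

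Summed over the 63 subunit genes, expression ranged 2.78-fold among libraries and 2.5-fold among group means, while the 2 replicates of a group differed by a median ratio of 1.06 and at most 1.34. All these values are in TPM. CPM (counts relative to library size) was scaled by TMM factors, which align the bulk of genes between libraries. These factors underlie the calls below unless another setting is named. On this scale replicates could lie much further apart, with sums of 9236 and 3287 in 18-22h Elav-negative and of 3222 and 1169 in 8-10h Elav-positive cells. The largest gap between replicates in TPM was in 6-8h Elav-positive cells, with 11814 TPM in replicate 1 and 8816 TPM in replicate 2, which came from different fly lines. At the low end stood 6-8h Vnd-positive cells with 8559 and 8736 TPM and 8-10h Elav-positive cells with 9497 and 8360 TPM. At the high end stood 18-22h Repo-negative cells with 15818 and 17589 TPM, 18-22h Elav-negative cells with 17577 and 18207 TPM, and 18-22h Repo-positive cells with 23206 and 20082 TPM. Most steps in the order of groups were small. The libraries of 17 of the 23 pairs of neighbouring groups overlapped, but in TPM those of 18-22h Repo-positive glia lay above all others. In CPM scaled by TMM factors these glia had 7656 and 5961, below the 9236 of 18-22h Elav-negative replicate 1. Of the 63 genes, 54 had their highest group mean in TPM in 18-22h Repo-positive glia, and 58 had their lowest in a marker-positive group. Both counts were taken in TPM alone, and no share of all genes is given beside them.

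**Figure D1:**
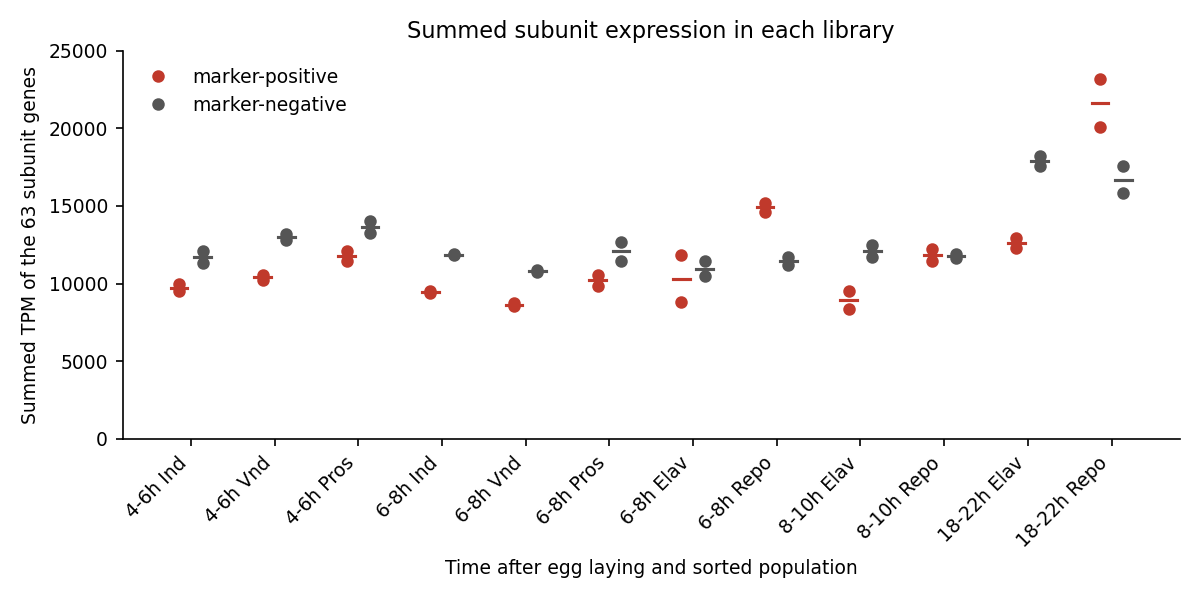
Summed TPM of the 63 subunit genes (y axis, linear from 0) in each of the 48 libraries, by time and sorted population (x axis), with red points for marker-positive libraries, grey points for marker-negative libraries and a short line for each group mean. The 18-22h Repo-positive libraries, at 23206 and 20082 TPM, stand above all others, and in TPM the positive libraries lie below the negative ones in 8 of the 12 comparisons, of which 4 (Pros at 4-6h and 6-8h, Elav at 8-10h and 18-22h) overlap in CPM scaled by TMM factors.

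The members varied largely together. The log2 TPM of a subunit gene correlated with the log2 sum of the other 62 genes with a median r of 0.79 over the 48 libraries, and 57 genes had an r above 0.5. These points share libraries, depth and the scaling of TPM, so the value is a description. The lowest values were those of ND-B8 (-0.15), COX8 (0.41), SdhD (0.46), ND-AGGG and ND-MLRQ (both 0.47) and UQCR-11 (0.49). The ratio of the highest to the lowest group mean was 2.74 for the median gene. It was largest for ATPsyngamma, of the central stalk of ATP synthase, with 6.19, followed by ATPsynC with 5.14 and SdhA with 4.02, and smallest for ND-B17.2 with 2.05, leaving out ND-B8.

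The strongest difference over time was found in glia. From 8-10h to 18-22h the summed level of the subunit genes in Repo-positive cells rose from 12234 and 11455 TPM to 23206 and 20082 TPM, a ratio of means of 1.83. The groups did not overlap, nor did they in CPM scaled by TMM factors, with 3109 and 1722 at 8-10h and 7656 and 5961 at 18-22h. Markers of some other cell types were higher in the same late libraries, and those of others were not. The muscle markers summed to 256 and 256.5 TPM at 8-10h and to 896 and 1526 TPM at 18-22h, the fat body markers to 33.0 and 44.2 and then 125 and 221 TPM, and the trachea markers to 70.7 and 75.4 and then 105 and 274 TPM. Gut markers were lower, with 69.0 and 76.7 TPM at 8-10h and 24.7 and 38.1 TPM at 18-22h. Germ line markers were lower too, with 26.5 and 53.6 and then 14.4 and 12.6 TPM. Neuron markers were higher, with 541 and 395 TPM at 8-10h and 665 and 708 TPM at 18-22h. Neuroblast markers were lower, with 519.6 and 285.6 and then 70.8 and 101.7 TPM. The sums of hemocyte and of epidermis markers overlapped between the times. The part of these cell types in the change was not tested. In the test across all genes, 47 of the 63 subunit genes were called higher at 18-22h and none lower, where a gene is called if its adjusted p is under 0.05 and its log2 fold change exceeds 1 in size (edgeR quasi-likelihood test, Benjamini-Hochberg adjustment over 17109 genes). Over all genes tested, 7.84% were called higher in this contrast. The median log2 fold change of the subunit genes was 1.30, beside -0.32 over all genes tested, and 62 of 63 had a positive value. All 11 genes of complex V were called, 25 of 34 of complex I, 2 of 4 of complex II, 3 of 6 of complex III and 6 of 8 of complex IV. In summed TPM the log2 ratio of group means was 0.73 for complex I, 0.59 for complexes II and III, 0.71 for complex IV and 1.23 for complex V. Both times came from the same fly line.

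ATPsynC (3R, 31216145 to 31219630, minus strand), the ring subunit, had 998 and 974 TPM at 8-10h and 3011 and 2672 TPM at 18-22h in Repo-positive cells. Its log2 fold change was the largest of the members at 1.96 ± 0.43 (SE, adjusted p = 0.0018, edgeR). ATPsynCF6, coupling factor 6 of the peripheral stalk, went from 199 and 215 TPM to 549 and 484 TPM, and UQCR-C2 (3L, 16584124 to 16586111, plus strand), a core protein of complex III, from 84.9 and 70.8 TPM to 221 and 176 TPM. Both libraries of the later time were above both of the earlier one for each of these 3 genes. SdhA, the catalytic subunit of succinate dehydrogenase, had 61.2 and 62.1 TPM at 8-10h and 139 and 137 TPM at 18-22h, with a log2 fold change of 1.68 ± 0.35 (adjusted p = 0.00114). The catalytic ATPsynbeta had 454 and 357 TPM at the earlier time and 979 and 801 TPM at the later, a log2 fold change of 1.59 ± 0.45 (adjusted p = 0.0158).

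In the remaining complexes the sizes were more mixed. The conserved catalytic genes ND-23, ND-24, ND-30, ND-49, ND-51 and ND-75 of complex I were all called, with log2 fold changes from 1.10 to 1.28, while ND-20 had 0.75 (adjusted p = 0.343). In complex III the core protein UQCR-C1 was called at 1.81 ± 0.46 and UQCR-Q at 1.35 ± 0.39, but the smaller UQCR-6.4, UQCR-11 and UQCR-14 had 0.77, 0.57 and 0.86 and did not pass. In complex IV COX7A reached 1.43 ± 0.40, and COX7B, at 725 and 557 TPM at 8-10h and 1012 and 971 TPM at 18-22h, missed the threshold with 1.19 ± 0.42 (adjusted p = 0.0587). COX8 was nearly level in TPM, with 190 and 181 TPM at 8-10h and 188 and 181 TPM at 18-22h, which overlap. ND-B8 ran opposite, with 5.98 and 22.9 TPM at 8-10h and 0.179 and 1.29 TPM at 18-22h, but its error was large (log2 fold change -3.47 ± 1.92, adjusted p = 0.295).

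The direction of this change was the same on the 3 scales tried. The median of the subunit genes was 1.19 with median-of-ratios factors, beside -0.50 over all genes, and 0.75 in TPM, beside -0.92. In TPM, 57 of the 63 genes had both 18-22h Repo-positive libraries above both 8-10h libraries, against 13.4% of all genes tested, and in CPM scaled by TMM factors 60 did, against 23.8%. The number of calls did depend on single libraries: without 8-10h Repo-positive replicate 2 it was 4, without replicate 1 it was 44, without 18-22h Repo-positive replicate 1 it was 10 and without replicate 2 it was 35. The receptor level was 4.45 and 18.7 TPM in the 8-10h glia and 3.32 and 3.64 TPM in the 18-22h glia. With this level as a covariate 43 members were called higher, where 1540 of all genes tested were.

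Negative cells and neurons showed smaller steps over the same interval. The summed level went from 11888 and 11672 to 15818 and 17589 TPM in Repo-negative cells (ratio of means 1.42), from 11736 and 12489 to 17577 and 18207 TPM in Elav-negative cells (1.48), and from 9497 and 8360 to 12305 and 12943 TPM in Elav-positive cells (1.41). In TPM no groups overlapped. In CPM scaled by TMM factors the times overlapped in Elav-positive cells (3222 and 1169, then 2596 and 3843) and in Elav-negative cells (4042 and 2610, then 9236 and 3287). In Repo-negative cells edgeR called none in either direction, where it called 10.4% of all genes tested higher and 18.5% in either direction. At an unadjusted p below 0.05, 7 were higher and 0 lower, and DESeq2 called 2 higher. In Elav-positive cells edgeR called 3 higher, a smaller share than the 5.33% called over all genes, and DESeq2 called 5. The median log2 fold change of the subunit genes was 0.41, beside 0.03 over all genes tested. Of the 3, SdhA had a log2 fold change of 1.27 ± 0.35 (adjusted p = 0.0157) and ATPsynCF6 had 1.13 ± 0.35 (0.0359). ATPsynG, a subunit at the dimer interface of ATP synthase, had 1.11 ± 0.35 (0.0422). In Elav-negative cells edgeR called 4 higher, about the same share as the 6.2% called over all genes. DESeq2 and median-of-ratios factors gave 17 each. The median of the subunit genes was 0.76, beside 0.22 over all genes tested. Of the 4, ATPsynG had 1.77 ± 0.36 (0.00133), ATPsynCF6 1.22 ± 0.35 (0.0211) and ATPsyndelta of the central stalk 1.21 ± 0.36 (0.027). ND-B22, a membrane arm subunit of complex I, had 1.22 ± 0.39 (0.0363).

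SdhA in Elav-positive neurons had 44.1 and 59.6 TPM at 8-10h and 113 and 104 TPM at 18-22h. ATPsynG had 75.6 and 92.8 TPM in the same cells at 8-10h and 145 and 164 TPM at 18-22h, and in Elav-negative cells 109 and 109 TPM at the earlier and 264 and 301 TPM at the later time. None of these groups overlapped in TPM. The Elav cells came from yw embryos at 8-10h and from vnd-lexA/VC:FNLDD embryos at 18-22h, so the fly line and the time cannot be told apart there. The number of calls in Elav-negative cells was 0 without 18-22h Elav-negative replicate 1 and 42 without replicate 2, and in Elav-positive cells it was 20 without 8-10h Elav-positive replicate 1 and 0 without replicate 2 of either time. Without either 8-10h Elav-negative library 1 gene passed in Elav-negative cells.

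**Figure D2:**
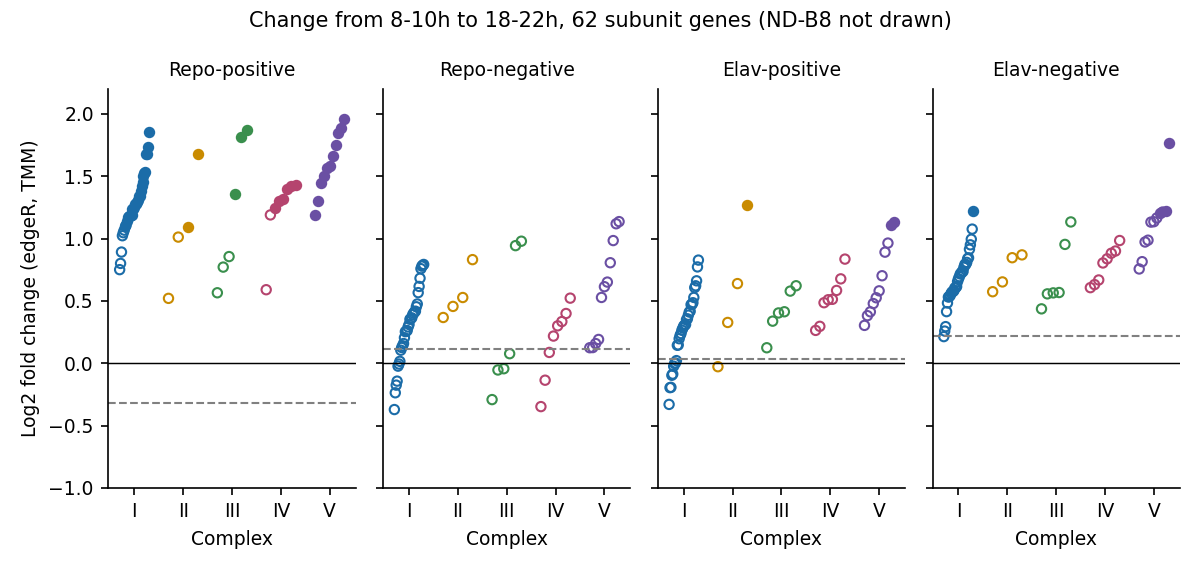
Log2 fold change from 8-10h to 18-22h (y axis, edgeR with TMM factors) of 62 subunit genes, grouped by complex (x axis), in Repo-positive, Repo-negative, Elav-positive and Elav-negative cells, with filled points for called genes, open points for the rest and a dashed line for the median of all genes tested. In Repo-positive cells the points lie well above the dashed line at -0.32 and all 11 genes of complex V are filled, while few are filled in the other panels.

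The balance among the complexes also differed at the last time. Complex V made up 34.0% to 37.9% of the summed subunit TPM in the 8 libraries of 18-22h, and 25.2% to 32.7% in the 40 earlier libraries. The ranges did not overlap, and the 8 late libraries comprise both fractions of Elav and Repo cells. At 8-10h, in the same populations, the share was 27.3% to 32.2%. Leaving out ATPsynC, the share was 25.4% to 27.6% at 18-22h and at most 25.5% before, so a slight overlap remained, and in CPM scaled by TMM factors it was 42.3% to 46.6% against at most 41.1%. Within the last time, Elav-positive libraries had the lowest shares with 34.0% and 35.01%, below the 37.2% and 37.9% of Elav-negative libraries. Complex I took 25.2% to 27.1% at 18-22h with a median of 26.6%, beside medians of 28.8%, 28.4% and 29.6% at 4-6h, 6-8h and 8-10h. Complex IV took a median of 25.6% at 18-22h, beside 30.3%, 31.0% and 27.2% earlier, complex III 9.0% beside 10.3% to 10.6%, and complex II 2.2% beside 1.9% to 2.5%. The same order appears in the median log2 fold changes from 8-10h to 18-22h: complex V had the highest median of the 5 complexes in Repo-positive cells (1.59), Repo-negative cells (0.61), Elav-positive cells (0.58) and Elav-negative cells (1.14). Shares of a sum carry no test here.

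**Figure D3:**
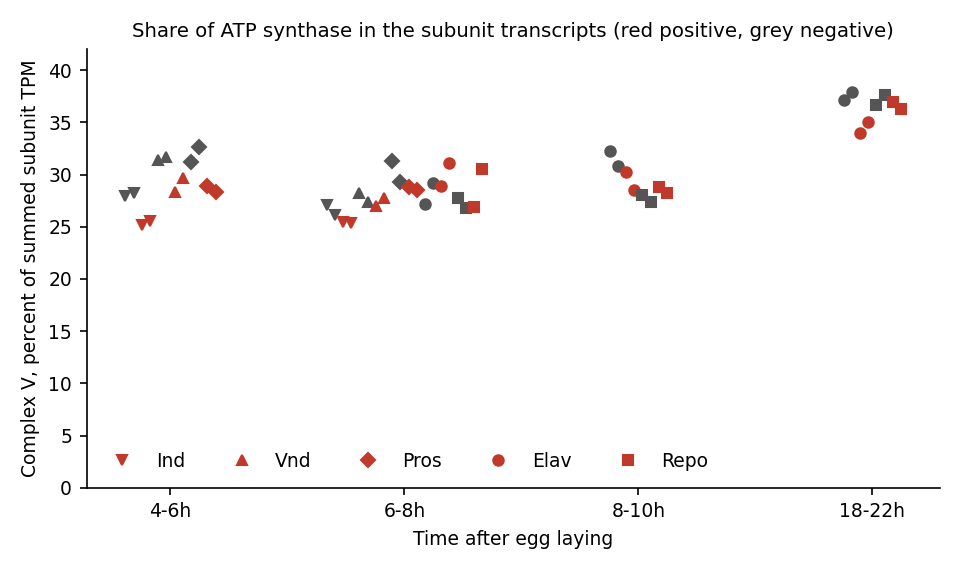
Percent of the summed subunit TPM that falls on the 11 complex V genes (y axis, linear from 0) in each of the 48 libraries by time (x axis), with red for positive and grey for negative cells and a symbol for each population. The 8 libraries of 18-22h lie between 34.0% and 37.9%, above all earlier ones, which reach 32.7%.

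Between positive and negative cells of one sort, the summed TPM of subunit transcripts was mostly lower in the positive, neural cells. In TPM both positive libraries were below both negative ones in 8 of the 12 comparisons, with ratios of means from 0.706 in 18-22h Elav to 0.862 in 4-6h Pros. In CPM scaled by TMM factors 4 of these 8 overlapped, namely Pros at 4-6h and 6-8h and Elav at 8-10h and 18-22h. In 6-8h Elav the libraries overlapped (ratio 0.942), as they did in 8-10h Repo (1.01). Both positive libraries were above both negative ones in 18-22h Repo (1.30) and, on the TPM scale but not with TMM factors, in 6-8h Repo (1.30). Few of these differences reached single genes. Of the 63 genes, 15 were called lower in 18-22h Elav (11.8% of all genes tested), 2 in the Elav sort of 8-10h (7.8%) and 1 in the Repo sort of that time (2.08%). Both counts at 8-10h are smaller shares than those over all genes. For the remaining 9 comparisons edgeR called none in either direction, and between 1 and 5 genes had an unadjusted p below 0.05. Of all genes tested, 4.49%, 0.684% and 5.78% were called in either direction there for Ind, Vnd and Pros at 4-6h. At 6-8h the shares were 2.33% for Ind, 0.14% for Vnd, 3.57% for Pros, 17% for Elav and 17.8% for Repo, and at 18-22h 5.85% for Repo. In these 9, DESeq2 called 1 gene higher in 18-22h Repo and none elsewhere. In bulk samples, fewer cells of a type and less RNA per cell cannot be told apart.

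Neurons at 18-22h showed the widest gap. Elav-positive cells had 12305 and 12943 TPM of subunit transcripts and Elav-negative cells 17577 and 18207 TPM. The 15 genes called lower were 10 of complex I, 2 of complex IV and 3 of complex V, and ND-B12, ND-PDSW, ND-B14.5B, ND-ACP, ND-39, ND-B18, ND-B14 and ND-24 of complex I were among them. The median log2 fold change of the 63 genes was -0.97, beside -0.12 over all genes tested. In summed TPM the log2 ratios of group means were -0.50, -0.11, -0.26, -0.46 and -0.62 for complexes I to V. ND-19, an NDUFA8-type subunit of complex I, had the largest change among them, with 62.6 and 36.4 TPM in positive and 83.9 and 107 TPM in negative cells (log2 fold change -1.52 ± 0.38, adjusted p = 0.00367). ND-30 (3L, 3158485 to 3159578, minus strand), a catalytic subunit of the quinone module, had 51.4 and 42.5 TPM in positive and 82.5 and 92.6 TPM in negative cells (-1.43 ± 0.38, adjusted p = 0.00575). ATPsyndelta had 242 and 251 TPM in positive and 398 and 452 TPM in negative cells (-1.37 ± 0.37, adjusted p = 0.0063). In each of these genes the positive libraries were below the negative ones. COX7B, the most abundant transcript of complex IV, was called as well, at 490 and 567 TPM against 927 and 1022 TPM (-1.29 ± 0.42, adjusted p = 0.0261). No gene of complexes II and III was called, with medians of -0.56 and -0.85. SdhA of complex II had 113 and 104 TPM in positive and 92.2 and 110 TPM in negative cells, which overlap.

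The size of this difference depended on the scale. In CPM scaled by TMM factors the sums overlapped, with 2596 and 3843 in Elav-positive and 9236 and 3287 in Elav-negative cells. In TPM, 55 of the 63 genes had both Elav-positive libraries below both negative ones at 18-22h (18.3% of all genes), whereas in CPM scaled by TMM factors 15 did (22.5% of all genes). The number of calls was 56 without Elav-negative replicate 2, whose receptor level was 14.01 TPM, 0 without Elav-negative replicate 1, whose receptor level was 0.156 TPM, 1 without Elav-positive replicate 1 and 12 without Elav-positive replicate 2. With the receptor level as a covariate 1 gene was called lower, where 2330 of all genes tested were. With a replicate block the count was 9. The neuron markers summed to 4100 and 3917 TPM in Elav-positive and to 118 and 186 TPM in Elav-negative cells. The fractions also differed in other cell types. Summed over 7 muscle markers, Elav-negative cells had 3944 and 3993 TPM and Elav-positive cells 828 and 1304 TPM, over 3 fat body markers 1359 and 1142 against 117 and 182 TPM, and over 5 hemocyte markers 1750 and 746.5 against 68.5 and 61.2 TPM. The part of these cells in the difference was not tested.

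Glia at 18-22h went the other way. Repo-positive cells had 23206 and 20082 TPM of subunit transcripts and Repo-negative cells 15818 and 17589 TPM. The median log2 fold change was 0.57, beside -0.21 over all genes tested, and 62 of 63 genes had a positive value, all but ND-B8. The log2 ratios of summed TPM lay close together, from 0.35 for IV and V to 0.49 for III. Both positive libraries were above both negative ones for 54 genes in TPM (15.7% of all genes) and for 58 genes in CPM scaled by TMM factors (20.3%). No gene was called by edgeR in either direction (3.22% of all genes were called higher), with 3 genes higher and 0 lower at an unadjusted p below 0.05. The largest value was that of ND-B14.5A, an NDUFA7-type subunit of complex I, with 299 and 293 TPM in positive and 147 and 169 TPM in negative cells (log2 fold change 1.05 ± 0.40, adjusted p = 0.143). Muscle markers were lower in these glia as well, with 896 and 1526 TPM against 3625 and 4746 TPM in the negative cells, and fat body markers had 125 and 221 against 882 and 1127 TPM. Their part in the difference was not tested. The glia markers summed to 4745 and 2949 TPM in Repo-positive and to 169 and 117 TPM in Repo-negative cells.

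The 2 comparisons at 18-22h were set against each other in the same fit, as the positive-against-negative difference of Elav minus that of Repo. All 4 groups came from vnd-lexA/VC:FNLDD embryos and share no library. The difference was negative for 62 of the 63 genes, with a median of -1.53 on the log2 scale beside 0.08 over all genes tested, and 22 were called, all lower, against 6.01% of all genes. DESeq2 called 53, median-of-ratios factors gave 52 and the replicate block 11, all lower. The share of all genes is that of edgeR with TMM factors alone, and none is given for these settings. The 22 comprise 15 genes of complex I, 1 of complex III, 1 of complex IV and 5 of complex V. ND-30 had the largest difference with -2.17 ± 0.53 (adjusted p = 0.00455), followed by ND-B14.5A with -2.10 ± 0.57 (0.0111) and ATPsynO, a peripheral stalk subunit, with -2.05 ± 0.66 (0.0353). ATPsynO had 114.95 and 94.9 TPM in Elav-positive and 160 and 170 TPM in Elav-negative cells, and 226 and 195 TPM in Repo-positive and 125 and 144 TPM in Repo-negative cells. Its positive cells thus lay below the negative ones in the neuron sort and above them in the glia sort. Leaving out single libraries moved the count between 0, without Elav-negative replicate 1, and 58, without Elav-negative replicate 2. It was 1 without Elav-positive replicate 1, 3 without Repo-positive replicate 1, and 6 and 4 without Repo-negative replicates 1 and 2. At 6-8h and 8-10h the same difference had medians of 0.02 and -0.17, and edgeR called no gene, where 7.24% and 4.37% of all genes were called in either direction. No member had an unadjusted p below 0.05 at either time in edgeR, while DESeq2 called 2 lower at 6-8h and 0 at 8-10h.

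**Figure D4:**
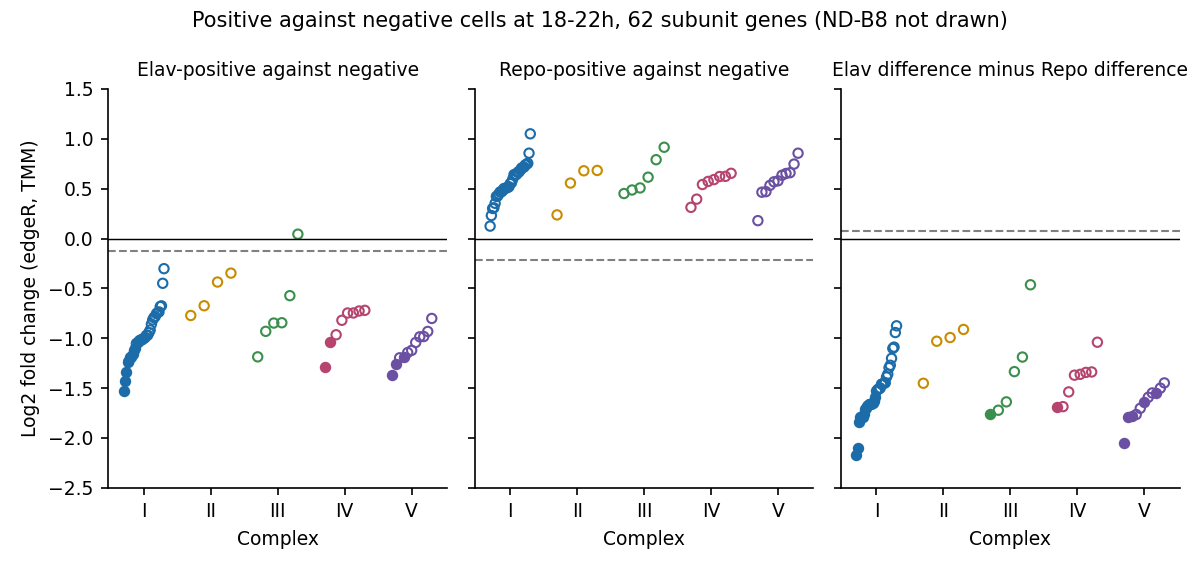
Log2 fold change of 62 subunit genes at 18-22h (y axis, edgeR with TMM factors), grouped by complex (x axis), for Elav-positive against negative cells, Repo-positive against negative cells and the difference of both, with filled points for called genes, open points for the rest and a dashed line for the median of all genes tested. Nearly all points lie below 0 in the Elav panel and above 0 in the Repo panel, and 22 genes are called in the difference, all negative.

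At 8-10h the test called 2 genes lower in neurons. ND-MNLL, an NDUFB1-type membrane arm subunit, had 38.3 and 39.9 TPM in Elav-positive and 83.4 and 92.1 TPM in Elav-negative cells (log2 fold change -1.21 ± 0.38, adjusted p = 0.0301). ND-15, an NDUFS5-type subunit, had 67.1 and 55.4 TPM against 128 and 148 TPM (-1.21 ± 0.32, adjusted p = 0.00942), and it was also the gene called lower in 8-10h Repo, with 112 and 114.8 TPM in positive and 127 and 249 TPM in negative cells (-1.12 ± 0.32, adjusted p = 0.0432). Exons of both genes lie over those of another gene on the same strand (CG45089 for ND-MNLL and CG3436 for ND-15), so reads could be split between them. The count in 8-10h Elav was 42 without Elav-positive replicate 1 and 0 without Elav-positive replicate 2 or without Elav-negative replicate 1, and 5 without Elav-negative replicate 2. With the replicate block it was 8. In 8-10h Repo the call of ND-15 was lost without either negative library, without Repo-positive replicate 2 and with the block. The 8-10h Elav replicates numbered 2 had receptor levels of 15.4 TPM in positive and 7.47 TPM in negative cells, and those numbered 1 had 0.662 and 0.481 TPM. In 8-10h Repo the levels were 18.7 and 7.28 TPM in replicates 2 and 4.45 and 2.78 TPM in replicates 1.

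For glia at the earlier times the direction turned with the scaling. At 6-8h, Repo-positive cells had 14611 and 15222 TPM of subunit transcripts and Repo-negative cells 11225 and 11709 TPM, and 46 genes had both positive libraries above both negative ones in TPM (35.8% of all genes). The log2 ratios of summed TPM were 0.38, 0.71, 0.47, 0.27 and 0.45 for complexes I to V, and in CPM scaled by TMM factors all but complex II turned negative. In CPM scaled by TMM factors 27 genes had both below (31.5% of all genes), and the median log2 fold change was -0.21 with TMM factors, 0.14 with median-of-ratios factors and 0.42 on the TPM scale. The median over all genes tested shifted along, from 0.22 to 0.59 and 0.66, and the subunit genes stood below it on all 3 scales. With the receptor level as a covariate they stood above it, with a median of 0.11 beside -0.19 over all genes. That level was 0.433 and 4.96 TPM in the 6-8h Repo-positive libraries and 0.203 and 0.478 TPM in the negative ones. At 8-10h the median was -0.37 with TMM factors, beside 0.32 over all genes, and 0.04 in TPM, beside 0.78. Between 6-8h and 8-10h, Repo-positive cells went from 14611 and 15222 TPM to 12234 and 11455 TPM. Of the 63 genes, 61 had a negative log2 fold change (median -0.68, beside 0.38 over all genes). None was called by edgeR, which called 0.0584% of all genes in either direction. At the looser threshold of an unadjusted p below 0.05, 23 were lower and 0 higher. The share of all genes at that threshold is not given. The 8-10h Repo-positive libraries had receptor levels of 4.45 and 18.7 TPM, beside 0.433 and 4.96 TPM at 6-8h. Once this level entered the fit, 12 were lower and 0 higher at the looser threshold. The median was then -0.23, beside 0.06 over all genes. DESeq2 called 3 lower. Repo-negative cells had a median of -0.50 with TMM factors and 0.15 in TPM over the same step, again with no call by edgeR or DESeq2 (2 genes lower at an unadjusted p below 0.05, 0.257% of all genes called). Repo cells came from another fly line at 6-8h than at 8-10h, and line and time cannot be told apart in this step. In Elav cells the step from 6-8h to 8-10h gave a median of -0.48 in positive cells and, in negative cells, of -0.11 with TMM factors but 0.17 in TPM. No member was called by edgeR, where 0.0234% and 1.15% of all genes were called. At an unadjusted p below 0.05, 7 and 0 genes were lower. The 6-8h Elav replicates came from different fly lines, and without 1 library the count in positive cells reached 14.

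In the columns and neuroblasts, at 4-6h and 6-8h, the summed TPM of the subunit genes was lower in positive cells, by ratios of means from 0.796 to 0.862. Ind-positive cells had 9514 and 9972 TPM against 11315 and 12128 TPM at 4-6h, Vnd-positive cells 10257 and 10544 against 13221 and 12784 TPM, and Pros-positive cells 11454 and 12130 against 13283 and 14064 TPM. At 6-8h the values were 9407 and 9500 against 11832 and 11914 TPM for Ind, 8559 and 8736 against 10869 and 10754 TPM for Vnd, and 10584 and 9852 against 11472 and 12681 TPM for Pros. In none of the 6 did the libraries overlap in TPM, but in CPM scaled by TMM factors those of Pros overlapped at both times. No single gene was called, and the median log2 fold change lay between -0.53 (Vnd at 6-8h) and -0.19 (Pros at 6-8h), apart from 4-6h Pros with 0.02 under TMM factors and -0.27 in TPM. From 4-6h to 6-8h the medians lay between -0.48 (Vnd-positive) and -0.03 (Pros-negative), again with no call by edgeR in either direction, between 0 and 3 genes lower and 0 higher at an unadjusted p below 0.05, and 1 gene called lower by DESeq2 in Ind-negative cells. Of all genes tested, the calls in either direction over this step made up 0.222% and 1.36% in Ind-positive and Ind-negative cells, 0.00584% and 0.0234% in Vnd cells and 0.0117% and 0.00584% in Pros cells.

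Genes of the same pathway that the symbol rule does not take were examined for the glial change, in which 7.84% of all genes were called higher. Of 11 tested genes of the respiratory chain and ATP synthase with other names, 7 were called higher in Repo-positive cells from 8-10h to 18-22h and none lower. They were blw (the catalytic alpha subunit of ATP synthase), sun (its epsilon subunit), ox and RFeSP and Cyt-c1 (complex III), levy (complex IV) and Cyt-c-p (cytochrome c). blw had 316 and 233 TPM at 8-10h and 741 and 636 TPM at 18-22h (log2 fold change 1.82 ± 0.47, adjusted p = 0.00779), and Cyt-c-p had 624 and 522 TPM and then 1081 and 833 TPM (1.30 ± 0.43, adjusted p = 0.038). Of 11 enzymes of the tricarboxylic acid cycle, 8 were called higher and none lower, led by Mdh2, the mitochondrial malate dehydrogenase, with 49.1 and 69 TPM at 8-10h and 240 and 183 TPM at 18-22h (2.46 ± 0.43, adjusted p = 0.000204). None of 8 assembly and insertion factors was called in either direction (median -0.08). Of 8 regulators of mitochondrial genes 1 was called, lower. It was srl, the Drosophila PGC-1 relative, with 38.8 and 31.3 TPM at 8-10h and 9.37 and 10.4 TPM at 18-22h (-1.31 ± 0.42, adjusted p = 0.0324), where 5.05% of all genes were called lower.

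In 18-22h neurons, where 11.8% of all genes were called lower and 9.09% higher, the same lists gave 3 of 11 respiratory genes lower (ox, sun and Etf-QO), 2 of 11 cycle enzymes lower (ScsbetaG and Fum1), 2 of 8 assembly factors lower (Surf1 and sicily), and among regulators 1 higher (ewg) and 4 lower (srl, TFAM, PolrMT and Myc). Etf-QO, which feeds electrons from fatty acid oxidation to ubiquinone, had 11.6 and 10.7 TPM in Elav-positive and 41.3 and 44.9 TPM in Elav-negative cells (-2.44 ± 0.55, adjusted p = 0.00135). srl had 9.21 and 7.91 TPM in positive and 25.4 and 24.3 TPM in negative cells (-2.06 ± 0.43, adjusted p = 0.000587). ewg, the NRF-1 relative of Drosophila, had 164 and 180 TPM in positive and 43.3 and 44.8 TPM in negative cells (1.57 ± 0.44, adjusted p = 0.01). Cyt-c-p had 707 and 767 TPM in positive and 447 and 394 TPM in negative cells, which do not overlap, although its log2 fold change was 0.24 ± 0.42 with TMM factors (adjusted p = 0.893).

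The copies with a symbol ending in L behaved differently from the subunit genes. Their sum ranged from 34.9 TPM in 4-6h Ind-positive replicate 2 to 631 TPM in 8-10h Repo-positive replicate 2, the libraries with the lowest and the highest receptor level. Over the 48 libraries the log2 summed TPM of the copies followed the log2 receptor level with r = 0.90. That of the 63 subunit genes did so with r = 0.07. These points share libraries and the scaling of TPM. No correlation was computed in CPM scaled by TMM factors. There the replicate with the higher receptor level had the lower subunit sum in all groups but 6-8h Vnd-negative and 6-8h Elav-positive cells. In 18-22h Elav-negative cells the sums were 9236 at a receptor level of 0.156 TPM and 3287 at 14.01 TPM. Although 23 of the 24 copies exceeded 10 TPM in some library (all but COX5BL), 5 did so in the 11 libraries whose receptor level was under 0.5 TPM, and 13 had a median below 1 TPM there. SdhAL, ND-24L, ND-B14.5AL, ATPsynbetaL and COX6AL2, which had r values from 0.93 to 0.96 with the receptor level, had medians from 0.0545 to 0.668 TPM in those 11 libraries, and COX6CL, ATPsynGL and UQCR-14L had medians of 0. ND-20L (0.191 TPM), COX7AL2 (0.147 TPM), ATPsynCF6L (0.0388 TPM) and COX6AL (0.608 TPM) also stayed below 1 TPM. SdhBL, COX7AL, SdhCL, ND-51L2 and ATPsynepsilonL had medians from 1.399 to 2.26 TPM and COX4L 5.31 TPM.

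The 5 copies above 10 TPM at a low receptor level were UQCR-11L, UQCR-6.4L, ND-51L1, COX7CL and ND-49L. UQCR-11L (2R, 8677219 to 8677661, plus strand) had a median of 24.3 TPM over all libraries and reached 71.6 TPM in 18-22h Elav-negative replicate 1, where the receptor level was 0.156 TPM. It had 2.28 and 2.56 TPM in 4-6h Ind-negative cells and 17.3 and 19.4 TPM in 6-8h Ind-negative cells. It was the only copy called in any of the 29 contrasts, higher at 6-8h than at 4-6h in Ind-negative cells (log2 fold change 2.67 ± 0.63, adjusted p = 0.0273, 0.251% of all genes called higher) and higher at 18-22h than at 8-10h in Repo-negative cells (1.71 ± 0.61, adjusted p = 0.0463), where it had 19.6 and 15.4 TPM and then 42.6 and 72.7 TPM. UQCR-6.4L reached 42.9 and 48.5 TPM in 6-8h Repo-positive cells, against 9.6 and 14.8 TPM in the negative cells, and was not called there. The Ind-negative cells of the 2 times came from different fly lines, so line and time cannot be told apart for the first of the calls of UQCR-11L. The median of each copy over the libraries was below that of the gene it is paired with, which was 256 TPM for UQCR-11 and 201 TPM for UQCR-6.4. Reads may be divided among near-identical copies, which the estimated counts settle by a model. The 6 testis genes of the marker list summed to 0.675 TPM in 6-8h Repo-negative replicate 1 and to 126 TPM in 8-10h Repo-positive replicate 2. Their part in the level of the copies was not tested.

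**Figure D5:**
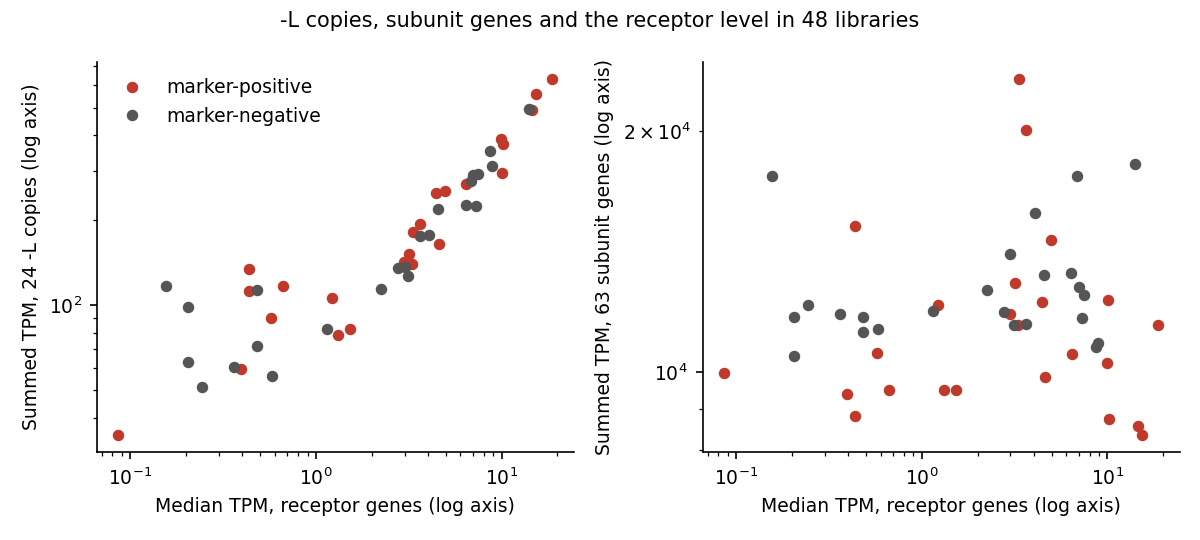
Summed TPM of the 24 copies (left) and of the 63 subunit genes (right) against the median TPM of the autosomal chemosensory receptor genes in each of the 48 libraries, all axes logarithmic, with red for positive and grey for negative cells. In TPM the copies rise with the receptor level (r = 0.90) and the subunit genes do not (r = 0.07). CPM scaled by TMM factors is not drawn.

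Sdhaf3, an assembly factor of complex II that the rule takes by its name, had a median of 10.6 TPM and ranged from 0 to 43.2 TPM. It correlated with the receptor level with r = 0.65 and was not called in any contrast. ND-B8 likewise correlated with the receptor level (r = 0.68) and had a median of 0.865 TPM in the 11 libraries where that level was lowest.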

How the data were processed

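RNA was amplified with the NuGEN Ovation Drosophila system from fixed, antibody-stained and sorted cells, and the replicates of a group were biological duplicates. Per the study's methods and the submitters' processing notes, the authors quantified reads against the FlyBase 6.15 transcripts of BDGP release 6 with Salmon 0.8.1 (RSEM 1.3.0 and DESeq2 are also listed), and the deposited table of each library holds an estimated count and a TPM value per transcript. TPM as deposited was computed by the authors' tool over all transcripts of a library. The authors' 12 tables of DESeq2 output hold mean counts, fold changes and p-values and were not used.

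Transcripts were joined to genes with the Ensembl release 115 annotation. Of 34428 transcripts per library 305 did not match, with 0.241% to 0.502% of the reads. TPM and estimated counts were summed per gene, and the estimated counts were rounded to whole numbers. Genes with low counts were filtered by edgeR (4.0.16, R 4.3.3), TMM factors were computed, and 1 quasi-likelihood model with 24 group means was fitted to the 48 libraries, leaving 24 residual degrees of freedom. The model tested 17109 genes in 29 contrasts, 12 between fractions, 14 between times and 3 between sorts, and p-values were adjusted by Benjamini-Hochberg within a contrast. All 63 subunit genes, 23 of the 24 copies (not COX5BL) and Sdhaf3 passed the filter. Adjusted p-values are from edgeR unless another tool is named. Shares of all genes called are those of edgeR with TMM factors unless another setting is named. Counts at an unadjusted p below 0.05 and counts under other settings have no share of all genes beside them unless one is given. The script was tested on simulated data.

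Members and pathway lists were chosen with earlier results of these data known. The genes named are, per complex, the 3 subunit genes with the highest mean TPM and the one with the lowest, per contrast and direction up to 3 called genes with the largest change, every copy that reached 10 TPM, and genes of the pathway lists. Other genes are named after their values were seen. The fly line ties replicate numbers in 6-8h Elav cells, where same-numbered libraries deviated together (correlation 0.523). The labels give no such tie elsewhere, and the correlation there ran from -0.552 to 0.722. Alternatives were DESeq2 (1.42.0), median-of-ratios factors, no filter, the receptor level as a covariate, a replicate block, TPM with a pseudocount of 1, and leaving out each library. Reads carried no molecular identifiers, so precision covers these libraries only. Genes encoded by the mitochondrial genome, AOX and Ecsit were not analysed here.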

Additional observations from a re-analysis of the deposited data

Results flagged for a closer look

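The difference between the neuron and the glia sort at 18-22h was flagged because the contrast of positive with negative cells differed between the sorts when tested as such (edgeR, same fit). It comprises the 22 subunit genes called lower in that difference. The count was 53 with DESeq2, 52 with median-of-ratios factors and 11 with the replicate block, settings for which no share of all genes is given. The values were -2.17 for ND-30, -2.10 for ND-B14.5A and -2.05 for ATPsynO on the log2 scale. With 2 libraries in a group, neither can be identified as outlying. The count of 22 depended strongly on single libraries when each was left out in turn, as described above.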

How the results depend on the processing

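Counts of called subunit genes (of 63) depended on single libraries. Leaving out each library in turn, the count called lower ran from 0 to 1 in 6-8h Elav, 0 to 42 in 8-10h Elav, 0 to 56 in 18-22h Elav, 0 to 1 in 8-10h Repo, 0 to 14 from 6-8h to 8-10h in Elav-positive cells, 0 to 2 in Repo-positive cells over that step, and 0 to 1 and 0 to 58 in the difference of sorts at 8-10h and 18-22h (higher 0 to 1 at 18-22h). From 8-10h to 18-22h the count called higher ran from 0 to 20 in Elav-positive (lower 0 to 1), 0 to 42 in Elav-negative, 4 to 44 in Repo-positive and 0 to 2 in Repo-negative cells. With 1 library left in a group, it is assumed to vary like the others. With the receptor level as a covariate the counts were 1 lower in 4-6h Ind, 1 in 18-22h Elav and 1 in the 6-8h difference, and 7 and 5 higher at 18-22h in Elav-positive and Repo-negative cells. With the replicate block they were 8 lower in 8-10h Elav, 9 in 18-22h Elav, 0 in 8-10h Repo and 11 in the 18-22h difference, and 1 higher in Repo-negative cells, and the block changed no call in 6-8h Elav, where the numbers pair. Elsewhere only the number is shared, and the deviations of same-numbered libraries correlated between -0.552 (18-22h Elav) and 0.722 (8-10h Elav), with 0.562 in 8-10h Repo, 0.434 in 4-6h Ind and 0.449 in 6-8h Ind. DESeq2 and median-of-ratios factors gave 1 and 1 higher in 18-22h Repo, 1 and 1 lower in Ind-negative cells over time, 5 and 5 higher in Elav-positive, 17 and 17 in Elav-negative and 2 and 2 in Repo-negative cells at 18-22h, 2 and 1 lower in the 6-8h difference and 53 and 52 in that at 18-22h. DESeq2 alone gave 3 lower in Repo-positive cells from 6-8h to 8-10h. Dropping the filter moved no count by over 1.5 times.

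The log2 ratios of summed TPM for complexes I to V moved on CPM scaled by TMM factors. They became -0.22, 0.08, -0.13, -0.24 and -0.10 in 6-8h Repo, -0.96, -0.44, -0.85, -0.90 and -1.07 in 18-22h Elav, and 1.26, 1.33, 1.4, 1.30 and 1.77 from 8-10h to 18-22h in Repo-positive cells. In 18-22h Repo complexes II and IV became 0.62 and 0.56, from 0.36 and 0.35. Taking the median over genes gave 0.60 for complex I in 6-8h Repo, -0.31, -0.41 and -0.26 for I, III and IV in 18-22h Elav, and 0.78 and 1.02 for II and V over time in Repo-positive cells. None of the named genes changed direction, but leaving out single libraries lost their calls in 37 instances and kept them in 47, and 4 of 18 calls were lost with the covariate and 2 with the block. The causes were not tested. Groups of 2 limit all counts, and genes near the threshold may differ without passing it.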
